A study of Mus musculus with 38 samples.

Results

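The thalamus borders the hypothalamus from above in the diencephalon. Relay neurons of the dorsal thalamus are glutamatergic, project to the cortex and express a set of genes that hypothalamic neurons use little, among them Prkcd (protein kinase C delta), Ramp3 (a receptor activity-modifying protein that pairs with calcitonin-family receptors) and Shox2 (a homeobox transcription factor). The 12 arrays of 2-month-old mice, 6 of BACHD and 6 of WT, of 38 arrays in the whole series, were described by their thalamic share. Every probe set was centred within genotype, and the mean of the centred log2 values of Prkcd, Ramp3 and Shox2 on an array was taken as its thalamic score. Genes were then described by their slope on that score, in log2 units per score unit, so that the BACHD minus WT difference did not enter. The score was built from these same arrays, and the slopes of genes on it at 2 months are therefore given as a description with no test. Slopes were tested on the arrays of the other experiments, which the choice did not use. The 2-month arrays were tested only for differences between BACHD and WT.

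All 38 arrays hold hypothalamic RNA of female FVB/N mice, 1 array per mouse. BACHD mice carry full-length human HTT with 97 CAG repeats, expressed ubiquitously, and were compared with WT littermates at 2 months (6 and 6 arrays) and at 10 months (5 and 3 arrays). The AAV experiment holds WT mice injected bilaterally into the hypothalamus at 8 weeks of age with rAAV5 vectors for an N-terminal HTT fragment of 18 repeats (18Q, 5 arrays) or 79 repeats (79Q, 8 arrays), driven by the human Synapsin-1 promoter, and uninjected WT controls (5 arrays), all taken at 12 weeks of age. The controls had no injection, so surgery and vector cannot be told apart from the HTT fragment. The 3 sets of arrays were taken as normalized apart and were each fitted alone. Array medians at 2 months lay between 7.16 and 7.41 on the log2 scale. Among hypothalamic peptides, 2 bright ones were high on every array of the set. Hcrt (orexin) lay between 12.56 and 12.97 and Pmch (melanin-concentrating hormone) between 12.20 and 12.53. Other peptides were lower, such as Crh at 6.10 to 6.70 and Vip at 5.93 to 7.73, and the mean of the peptide list lay between 9.24 and 9.80.

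Prkcd differed widely among the 12 arrays at 2 months. In BACHD its log2 intensity was 7.51 at the lowest, 8.91 at the median and 11.30 at the highest. In WT the corresponding values were 7.99, 10.34 and 11.35. BACHD replicates 1, 5 and 7 and WT replicates 5 and 7 were low for Prkcd, at 7.51 to 8.00, and the 7 other arrays lay at 10.02 to 11.35, with no array between. Ramp3 ran from 6.81 to 9.51 in BACHD and from 7.04 to 9.60 in WT, and Shox2 from 5.25 to 7.92 and from 5.69 to 7.81. The same arrays were the low ones for all 3 markers. BACHD and WT overlapped over nearly the whole range of each marker.

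**Figure D1:**
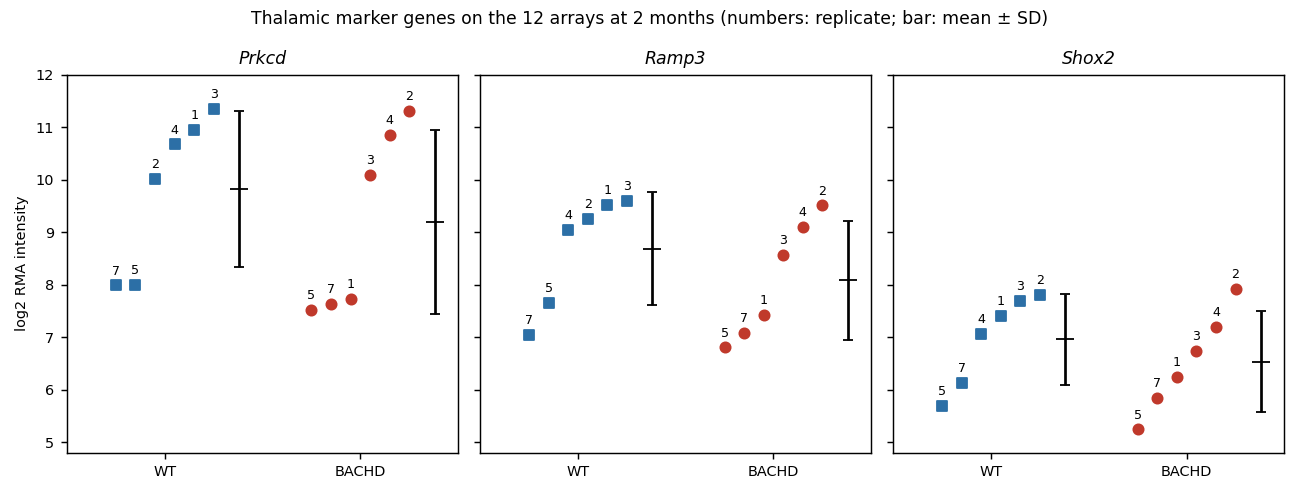
Log2 RMA intensity of Prkcd, Ramp3 and Shox2 on the 12 arrays at 2 months, by genotype; points are arrays with their replicate number, and bars show mean ± SD (n = 6 and 6). For each marker WT replicates 5 and 7 and BACHD replicates 1, 5 and 7 were the lowest of their genotype, and Prkcd ran from 7.51 to 11.35.

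The thalamic score of the arrays followed the same division. In BACHD the score was -0.80, 1.64, 0.53, 1.12, -1.41 and -1.08 for replicates 1, 2, 3, 4, 5 and 7. In WT it was 0.80, 0.53, 1.05, 0.43, -1.38 and -1.44 for the same numbers. Thus 7 arrays lay above 0 (0.43 or higher) and 5 below (-0.80 or lower), and replicates 5 and 7 were low in both genotypes while replicate 1 was low in BACHD alone. Slides and scan dates are not given in the sources used here, and the part of a batch in this division was not tested. The score took 14.6% of the total within-genotype variance over all 34760 probe sets. In RNA of whole tissue, fewer cells of a type and less RNA per cell cannot be told apart.

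Each marker also followed the score of the other 2. The slope on the score of the other 2 was 1.57 (SE 0.13) for Prkcd, 0.87 (SE 0.05) for Ramp3 and 0.63 (SE 0.07) for Shox2 at 2 months. In the AAV arrays the same slopes were 1.45, 0.58 and 0.85, and all passed limma with Benjamini-Hochberg adjustment over all probe sets (adjusted p of 0.00217, 0.0134 and 0.000128). At 10 months Prkcd (1.75, adjusted p of 0.00624) and Ramp3 (0.97, adjusted p of 0.00732) passed and Shox2 (0.49, adjusted p of 0.129) did not. The score ranged over 3.08 log2 units at 2 months, 1.60 at 10 months and 1.02 in the AAV arrays, and Prkcd spanned 14.3-fold, 7.18-fold and 3.42-fold.

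A gene was described as rising or falling where its slope was at least 0.25 in size, the score took at least 75% of its within-genotype variance and the slope had the same sign in BACHD and in WT alone. By this rule 65 of 19934 single-symbol genes besides the 3 markers rose with the thalamic score (0.326% of genes) and 0 fell (0% of genes). Slopes of the 65 genes ran from 0.25 to 0.90 with a median of 0.34, beside a median of 0.01 over all genes, and 13 of them were at 0.5 or more. The score took a median of 91.1% of their variance. Over the 7 arrays with a score above 0 alone, a setting chosen after seeing the data, 28 of the 65 met the rule. In WT the 2 lowest arrays were replicates 5 and 7 for all 65 genes. In BACHD the 3 lowest were replicates 1, 5 and 7 for 64 of them, Nrip3 being the exception. The genes were chosen on these same arrays for following the score, so this order largely follows from the choice. A further 16 probe sets carry symbols of the 65 genes, and all 16 had slopes above 0, 14 of them within the rule. The direction over all genes was uneven, as 63.9% of genes had a slope above 0. Of genes for which the score took at least 75% of the variance, whatever the size of the slope, 204 had a slope above 0 and 4 below. These 4 were Sall3 (-0.09), Nop53 (-0.08), Jpt2 (-0.08) and Kbtbd11 (-0.07), named after their values were seen.

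The largest slope belonged to Slc17a7, the vesicular glutamate transporter that loads glutamate in cortical and many thalamic neurons. Its log2 intensity was 7.10, 8.39 and 10.15 (lowest, median, highest) in BACHD and 7.36, 9.23 and 10.17 in WT, with a slope of 0.90 (SE 0.09). Ptpn3, a protein tyrosine phosphatase, followed the score most closely of the 12 leading genes, with 99.2% of its variance and a slope of 0.88 (SE 0.03). It ran from 8.39 over 9.50 to 10.90 in BACHD and from 8.83 over 10.70 to 11.25 in WT. Abhd12b, an alpha/beta hydrolase family member, ran from 5.13 to 7.66 in BACHD and from 5.29 to 7.66 in WT, with a slope of 0.85 (SE 0.07). For all 3 genes the low arrays were those with low Prkcd, and the genotypes overlapped.

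Gabrd encodes the delta subunit of extrasynaptic GABA-A receptors, which carry tonic inhibition in thalamic relay neurons. Its log2 intensity was 7.05, 7.65 and 9.23 (lowest, median, highest) in BACHD and 7.25, 8.59 and 9.14 in WT, with a slope of 0.69. Gabra4, the subunit that pairs with delta in such receptors, ran from 9.68 to 11.24 in BACHD and from 9.66 to 11.14 in WT, with a slope of 0.49. Plekhg1, a guanine nucleotide exchange factor, and Synpo2, an actin-binding protein of the synaptopodin family, had slopes of 0.68 and 0.67 and 97.9% and 98.0% of their variance on the score. Plekhg1 ran from 8.59 to 10.58 in BACHD and from 8.70 to 10.52 in WT, and Synpo2 from 7.93 to 9.89 and from 7.98 to 9.85. The other 6 of the 12 leading genes had slopes of 0.54 to 0.61. They were Grid2ip (0.61), Prkch (0.59), the eta form of protein kinase C, Mctp2 (0.56), a membrane protein with calcium-binding domains, the guanine nucleotide exchange factor Vav3 (0.55), Stum (0.54), whose fly counterpart serves mechanosensory transduction, and Rab37 (0.54), a small GTPase of secretory vesicles.

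**Figure D2:**
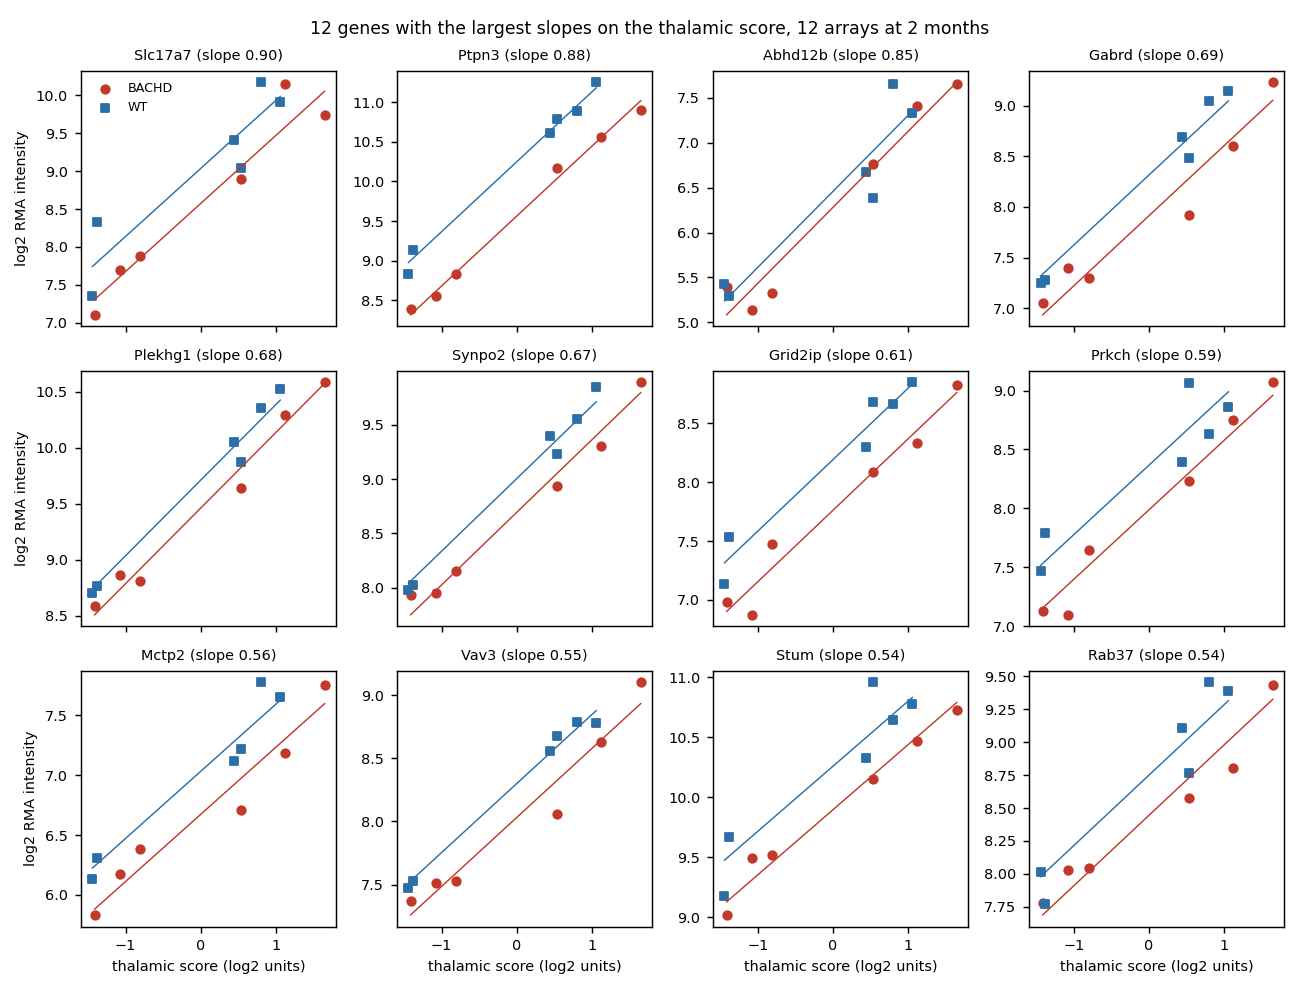
Log2 RMA intensity of the 12 genes with the largest slopes against the thalamic score on the 12 arrays at 2 months (red circles BACHD, blue squares WT, n = 6 and 6; lines have the common slope through each genotype's mean). Every panel shows 5 arrays at low scores and 7 at high ones, and the slopes printed run from 0.54 to 0.90.

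Transcription factors of the thalamus were among the 65 genes. Tcf7l2 and Lef1, partners of beta-catenin in canonical Wnt signalling, had slopes of 0.50 (SE 0.03) and 0.44 (SE 0.03). Tcf7l2 was 9.36, 10.01 and 10.91 (lowest, median, highest) in BACHD and 9.56, 10.63 and 10.88 in WT. Rora, a nuclear receptor, had a slope of 0.45 (SE 0.03), ran from 9.24 to 10.56 in BACHD and from 9.43 to 10.55 in WT, and gave 98.0% of its variance to the score. The homeobox genes Gbx2, which patterns the developing thalamus, and Lhx9 had slopes of 0.36 (SE 0.05) and 0.34 (SE 0.06). Wnt3, a Wnt ligand, had a slope of 0.33 (SE 0.03). Ntng1 (netrin-G1), a membrane-anchored protein of thalamocortical axons, had a slope of 0.49 (SE 0.03), ran from 10.03 to 11.61 in BACHD and from 10.22 to 11.44 in WT, and gave 98.1% of its variance. Among genes of transmission and excitability, the peptide Cck (0.50), the calcium-stimulated adenylyl cyclase Adcy1 (0.44), the potassium channel subunit Kcnc2 (0.39), Rgs4, a brake on G protein signalling (0.37), the postsynaptic scaffold Shank3 (0.34) and the nicotinic receptor subunit Chrna4 (0.30) also rose.

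Promoter windows of RefSeq on GRCm38.p6, from 250 bases before to 50 bases after a gene's start, were at hand for 49 of the 65 genes. Because Tcf7l2, Lef1, Rora and homeobox genes were among the members, the windows were searched on both strands for CTTTGAT (the core of TCF/LEF sites), AGGTCA (the half-site of ROR and other nuclear receptors) and TAATTA (a homeodomain core, its own reverse complement). None of the motifs holds another. CTTTGAT was in 1 of the 49 genes (2.04%, Ppp1r3a) and in 4.29% of all 27025 genes with a window. AGGTCA was in 6 of the 49 (12.2%) and in 18.1% of all, and TAATTA in 2 of the 49 (4.08%, Synpo2 and Adarb2) and in 6.12% of all. None of the 3 markers had any of these letters in its windows. The windows of the markers that define the score, of Ptpn3 and Synpo2, the genes that passed in both other sets of arrays, and of Ppp1r3a, with the only CTTTGAT, are shown 5′ to 3′ on the strand of the gene, with a match in capitals. For Prkcd, with 2 windows in the table, the upstream one is shown.
Prkcd (GRCm38.p6, chr14:30626159-30626458, minus strand): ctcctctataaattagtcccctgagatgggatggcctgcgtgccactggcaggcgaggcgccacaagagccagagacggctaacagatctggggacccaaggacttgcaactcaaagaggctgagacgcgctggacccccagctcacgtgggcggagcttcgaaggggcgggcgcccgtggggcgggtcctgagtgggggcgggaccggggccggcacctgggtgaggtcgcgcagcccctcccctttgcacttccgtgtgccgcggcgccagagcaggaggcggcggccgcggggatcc
Ramp3 (GRCm38.p6, chr11:6658283-6658582, plus strand): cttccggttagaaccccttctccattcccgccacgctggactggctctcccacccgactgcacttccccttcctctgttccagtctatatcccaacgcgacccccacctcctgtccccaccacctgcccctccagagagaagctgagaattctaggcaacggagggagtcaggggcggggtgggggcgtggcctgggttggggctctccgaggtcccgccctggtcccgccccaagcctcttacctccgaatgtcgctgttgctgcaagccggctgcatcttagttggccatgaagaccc
Shox2 (GRCm38.p6, chr3:66981722-66982021, minus strand): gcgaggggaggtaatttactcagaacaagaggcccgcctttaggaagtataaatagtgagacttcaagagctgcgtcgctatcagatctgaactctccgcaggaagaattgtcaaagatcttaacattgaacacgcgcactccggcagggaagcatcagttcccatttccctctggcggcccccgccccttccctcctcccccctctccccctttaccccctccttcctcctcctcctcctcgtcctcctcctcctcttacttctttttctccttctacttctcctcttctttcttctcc
Ptpn3 (GRCm38.p6, chr4:57301788-57302087, minus strand): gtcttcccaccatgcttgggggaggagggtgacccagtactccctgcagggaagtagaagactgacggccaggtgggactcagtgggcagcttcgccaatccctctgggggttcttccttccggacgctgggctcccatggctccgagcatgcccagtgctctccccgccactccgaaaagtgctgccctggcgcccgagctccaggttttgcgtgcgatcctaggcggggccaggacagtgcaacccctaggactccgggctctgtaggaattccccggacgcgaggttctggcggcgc
Synpo2 (GRCm38.p6, chr3:123236100-123236399, minus strand): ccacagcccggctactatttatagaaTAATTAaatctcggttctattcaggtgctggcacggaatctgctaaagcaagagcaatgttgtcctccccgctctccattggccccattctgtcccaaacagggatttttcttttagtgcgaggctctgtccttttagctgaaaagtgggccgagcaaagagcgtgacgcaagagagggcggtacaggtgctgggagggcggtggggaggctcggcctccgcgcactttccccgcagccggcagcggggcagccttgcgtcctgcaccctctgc
Ppp1r3a (GRCm38.p6, chr6:14755225-14755524, minus strand): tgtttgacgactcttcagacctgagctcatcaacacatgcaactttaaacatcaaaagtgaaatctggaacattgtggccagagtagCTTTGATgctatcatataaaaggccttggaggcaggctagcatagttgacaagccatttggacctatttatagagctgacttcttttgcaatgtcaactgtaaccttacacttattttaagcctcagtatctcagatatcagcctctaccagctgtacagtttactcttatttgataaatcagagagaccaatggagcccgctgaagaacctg

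At the limit on the variance share, the genes just inside were Tnnt1, a slow skeletal troponin T that is also a marker of thalamic relay neurons (slope 0.29, 75.8% of its variance) and Cpne7, a calcium-dependent phospholipid-binding copine (0.29, 77.2%). Just outside were Rasd1, a Ras-related GTPase (0.31, 72.0%), and Edaradd, an adaptor of ectodysplasin receptor signalling (0.28, 71.9%). At the limit on the slope, Rasgef1b (0.251), a Ras exchange factor, and Nrip3 (0.252) were just inside.

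Other known thalamic markers were compared with the score as a list chosen with earlier results of these data known. Of 15 measured, 14 had a slope above 0, beside 63.9% of all genes, and 10 rose within the rule, beside 0.326% of all genes. The list median was 0.36, beside 0.01 over all genes. Plekhg1, Synpo2, Tcf7l2 and Ntng1 led the list. Zic1, a zinc finger factor, had a slope of 0.38 with 69.6% of its variance, and Rgs16, a regulator of G protein signalling, one of 0.33 with 77.7%. Slc17a6, the vesicular glutamate transporter used by both thalamic and hypothalamic neurons, had a slope of 0.07 and the zinc finger factor Zic4 of 0.09, and Calb2 (calretinin), at -0.04, was the only member below 0. Of 13 ion channel genes of relay neurons, 10 had slopes above 0, beside 63.9% of all genes, and 1 rose, Kcnc2. Cacna1g, the T-type calcium channel of relay cell bursts, had a slope of 0.20 (72.7% of its variance) and Hcn4, a pacemaker channel, one of 0.15 (77.7%). Of 23 measured genes of the glutamatergic synapse, 21 had slopes above 0, beside 63.9% of all genes, and Slc17a7 and Shank3 rose. Grm4, a presynaptic metabotropic receptor, had a slope of 0.20 and Grin2b and Grin2a, NMDA receptor subunits, of 0.19 and 0.18. The lean of the synapse list was not seen in the other arrays. There 12 of the 23 were above 0 at 10 months (61.7% of all genes) and 11 in the AAV arrays (50.8%). Of the 13 channel genes, 5 were above 0 at 10 months and 10 in the AAV arrays.

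Neighbouring tissues were checked in the same way. Of 3 measured genes of the reticular thalamic nucleus, Pvalb had a slope of 0.27 (45.4% of its variance) and Ecel1 and Cacna1i had slopes of -0.02 and -0.03. The habenula list held 0 rising genes of 6, with slopes from -0.17 (Chrnb3) to 0.03 (Gpr151). Over all genes 0.326% rose and 0% fell, so a count of 0 in short lists such as this and those below says little about their tissues. The cortex and hippocampus list held 0 of 5, led by Tbr1 (0.27, 37.5% of its variance), a cortical transcription factor, and the striatum list 0 of 7, from -0.16 (Gpr6) to 0.10 (Pde10a). The lists of choroid plexus and pituitary, tissues that can cling to a dissected hypothalamus, held 0 rising or falling genes of 11 and 8. Slopes were above 0 for 10 of the 11 (median 0.06) and 1 of the 8 (median -0.06), beside 63.9% of all genes. The choroid plexus gene Kcnj13 stood at 10.87 on WT replicate 4, with a WT median of 6.87. Mean levels of the choroid plexus list reached 8.97 in WT and 7.18 in BACHD. Ttr, which choroid plexus makes in quantity, had a slope of 0.37 but gave 10.1% of its variance to the score, and the pituitary hormone subunit Cga had the most negative slope of all genes, at -0.44 with 14.0% of its variance.

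Hypothalamic genes leaned the other way without falling within the rule. Of 25 measured hypothalamic peptides, 5 had slopes above 0, beside 63.9% of all genes, and 20 below, with a median of -0.10 and a range from -0.29 to 0.12. Avp (vasopressin) had a slope of -0.29 (SE 0.12), Pomc (proopiomelanocortin) of -0.23 (SE 0.06), Vip of -0.23 (SE 0.15) and Adcyap1 of -0.22, and 33.3%, 58.5%, 15.8% and 46.5% of their variance lay on the score. Pomc was 6.74, 7.79 and 7.98 (lowest, median, highest) in BACHD and 7.63, 7.80 and 8.21 in WT, and its lowest array, BACHD replicate 2, had the highest score. Npvf (0.12) had the highest slope of the 5 peptides above 0. The mean level of the peptide list lay between 9.24 and 9.80 in BACHD and between 9.35 and 9.65 in WT. Of 15 transcription factors of the hypothalamus 9 had slopes below 0, with Foxb1 (-0.22), Tbx3 (-0.19) and Six6 (-0.17) lowest and Sim1, of the paraventricular nucleus, closest to the score (-0.12, 71.7% of its variance). All 5 monoamine genes had slopes below 0, from -0.33 (Slc6a3, the dopamine transporter) to -0.08 (Ddc), while 63.9% of all genes were above 0. Slc6a3 was 10.60 on BACHD replicate 7 and 7.81 to 8.70 on the other BACHD arrays. The slopes of Slc6a3, Avp and Vip were -0.51, -0.46 and -0.40 in BACHD alone but -0.10, -0.08 and -0.01 in WT alone. For Pomc they were -0.27 and -0.19.

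Over all genes, 79 had a slope of 0.25 or more and 9 of -0.25 or less. Besides Cga, Slc6a3 and Avp, the 9 held Chrna6 (-0.34) and Nr4a2 (-0.32), both of dopamine neurons, Gfap (-0.31), Crabp1 (-0.29), Gpr50 (-0.27) and Mamdc2 (-0.27). Gfap, the astrocyte intermediate filament, was 9.73, 10.55 and 11.13 (lowest, median, highest) in BACHD and 9.87, 10.53 and 10.93 in WT, with its lowest value on replicate 2 and its highest on replicate 7 of each genotype. Gpr50, an orphan receptor of tanycytes, ran from 9.11 to 10.51 in BACHD and from 9.67 to 10.39 in WT. Of these 9 genes, the score took at most 62.5% of the variance.

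Cell class markers had slopes near 0 at 2 months. The 16 oligodendrocyte genes had slopes from -0.03 (Opalin) to 0.04 (Gjb1), the 9 microglial genes from -0.05 (C1qb) to 0.05 (Trem2), and the 9 genes of GABA neurons from -0.08 (Isl1) to 0.09 (Gad2). Of 8 endothelial genes 7 had slopes above 0, with Cldn5 highest at 0.11. Of 10 astrocyte genes 9 had slopes below 0, and Gfap stood apart from the next, Aqp4, at -0.09. Immediate early genes lay between -0.03 and 0.12, and 20 genes of fatty acid elongation and related thioesterases between -0.08 (Acot5) and 0.09 (Elovl4).

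**Figure D3:**
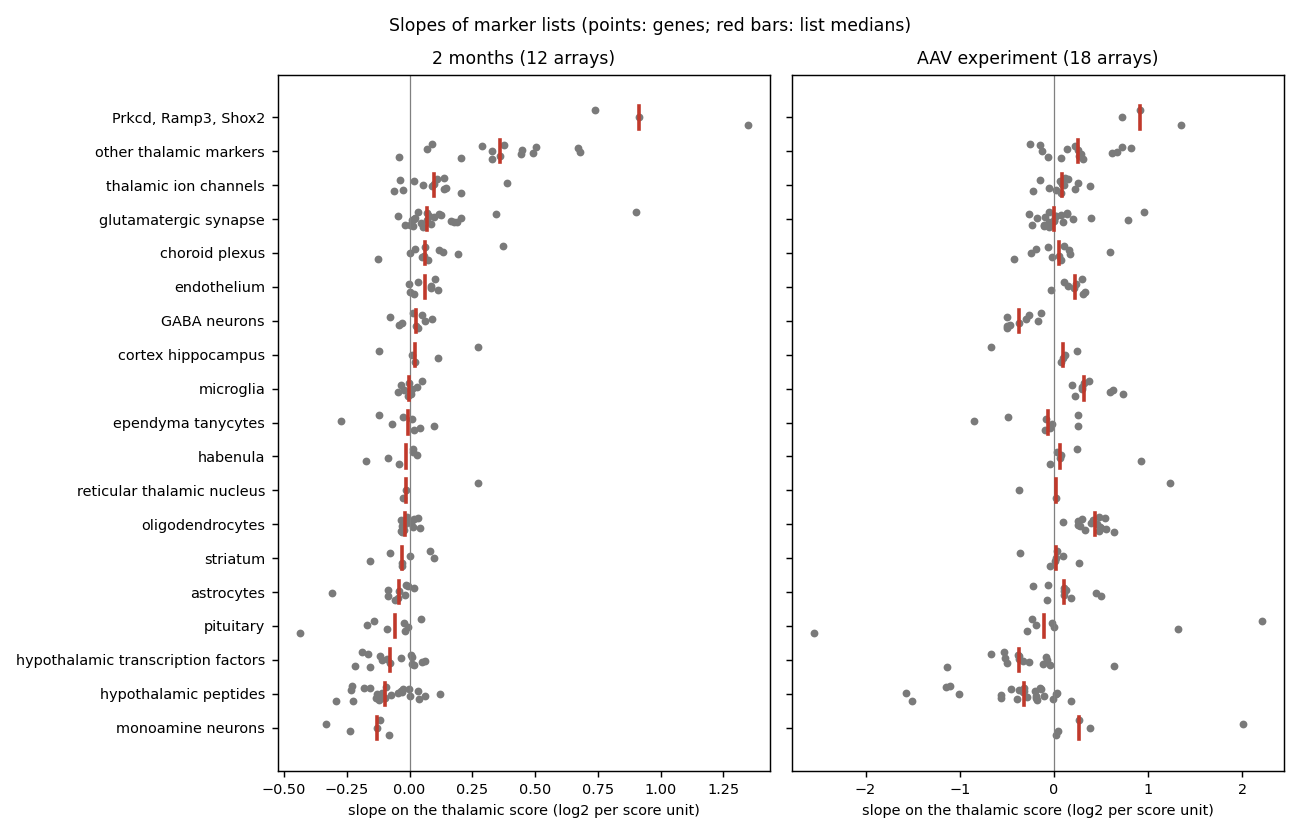
Slopes on the thalamic score (log2 per score unit) of marker lists at 2 months, left, and in the AAV experiment, right, on different horizontal scales; grey points are genes and red bars list medians. At 2 months the medians of the thalamic marker lists lie to the right. Those of the reticular thalamic nucleus and oligodendrocyte lists lie near 0, and in the AAV arrays all 16 oligodendrocyte genes lie above 0.

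The 65 genes were tested on the 8 arrays at 10 months, with the score built there from the same 3 markers. Of the 65, 64 had a slope above 0 (61.7% of all genes did) and 2 passed limma with adjustment over all probe sets (0.01% of all genes passed upward), Ptpn3 and Synpo2. None passed downward (0% of all genes). At an unadjusted p under 0.05, 45 of the 65 were above 0, beside 5.97% of all genes, and 0 below 0, beside 1.46%. The median slope of the 65 was 0.23 (0.02 over all genes). Ptpn3 was 9.69, 9.79, 10.36, 9.06 and 9.42 in BACHD replicates 1 to 5 and 9.00, 8.48 and 9.58 in WT replicates 1 to 3, with a slope of 0.83 (SE 0.06, adjusted p of 0.0103). Synpo2 was 8.72, 8.76, 9.19, 8.14 and 8.43 in BACHD and 8.24, 7.87 and 8.65 in WT, with a slope of 0.64 (SE 0.05, adjusted p of 0.0103). In both genes BACHD replicate 3 was highest and WT replicate 2 lowest, which were also the highest and the lowest array for Prkcd (10.46 and 7.62), and the genotypes overlapped. Slc17a7 (0.80, SE 0.17) and Abhd12b (1.13, SE 0.13) had large slopes that did not pass (adjusted p of 0.386 and 0.0612), and Ppp1r3a (-0.0047) was the only gene of the 65 not above 0. The calls of Ptpn3 and Synpo2 rest on few arrays, since 0 of the 65 passed without BACHD replicate 3, without BACHD replicate 4, without WT replicate 2 or without WT replicate 3, and 1 without BACHD replicate 2.

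In the 18 AAV arrays, 62 of the 65 genes had a slope above 0 (50.8% of all genes) and 31 passed limma upward, which is 47.7% of them beside 1.06% of all genes. None passed downward (0.998% of all genes). At an unadjusted p under 0.05, 49 of the 65 were above 0, beside 9.19% of all genes, and 0 below 0, beside 7.22%. The median slope was 0.28 (0.00 over all genes). All 12 leading genes of the 2-month arrays passed, from Gabrd at 0.46 (SE 0.09, adjusted p of 0.0203) to Ptpn3 at 1.31 (SE 0.11, adjusted p of 8.81e-06). Slc17a7 had a slope of 0.96 (SE 0.17, adjusted p of 0.0115). The rest of those that passed included Tcf7l2 (0.72), Cck (0.94), Ntng1 (0.62), Gpr4 (0.62), Wnt3 (0.43) and Rora (0.26). Rgs16 (-0.13), Neurl1b (-0.13) and Ildr2 (-0.10) had slopes below 0 and did not pass. Both genes that passed at 10 months passed here, and 34 of the 65 passed in neither set.

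The level of Ptpn3 in the AAV arrays was 8.61, 8.53, 9.72, 8.49 and 8.47 in 18Q replicates 1, 2, 3, 4 and 6 and 8.89, 8.58, 8.76, 9.29 and 8.56 in WT control replicates 1, 2, 4, 5 and 7. In 79Q it was 8.44 at the lowest, 8.71 at the median and 9.69 at the highest. Each group's high values stood on its arrays of high score, which were 18Q replicate 3 (score 0.68), 79Q replicates 6, 7 and 8 (0.44, 0.40 and 0.40) and WT control replicate 5 (0.32), and the groups overlapped. The number that passed rests strongly on 18Q replicate 3: without it 9 of the 65 passed (0.0702% of all genes), with 62 still above 0 and a median slope of 0.24. Leaving out any other single array gave 26 to 33. In the 5 uninjected controls alone 0 passed, with 60 of the 65 above 0, and in the 13 injected arrays alone 24.

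**Figure D4:**
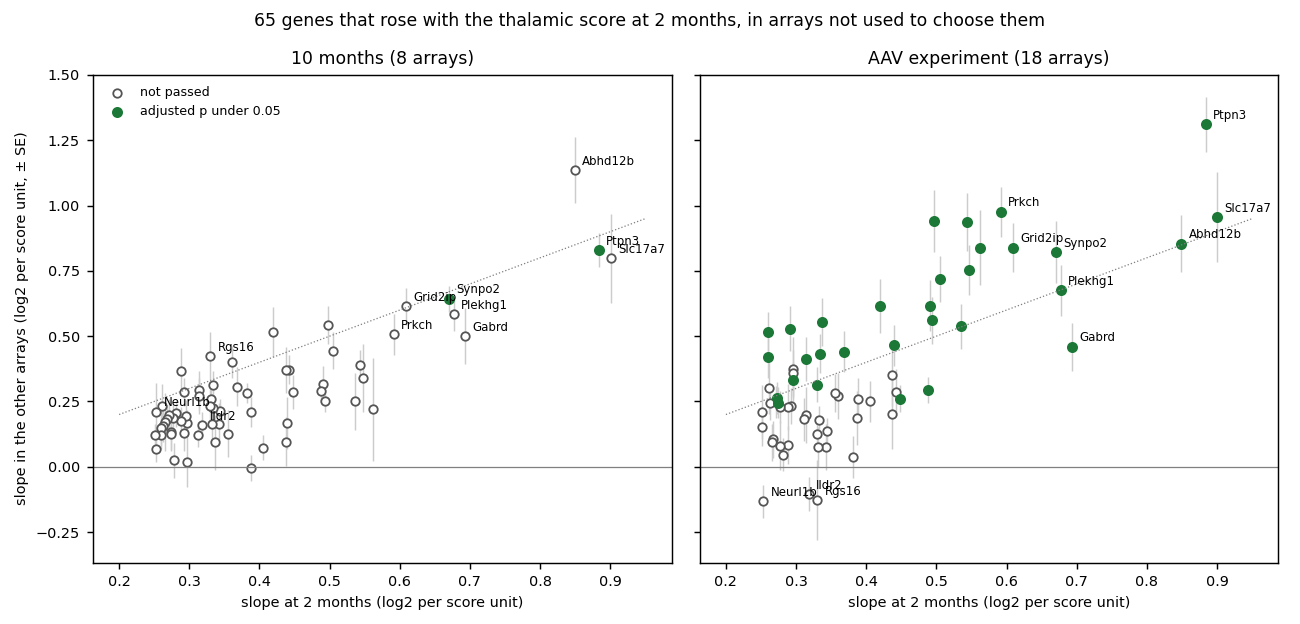
Slope on the thalamic score of the 65 genes at 2 months (horizontal) against the slope at 10 months, left, and in the AAV arrays, right (vertical, ± SE, log2 per score unit); filled points passed at an adjusted p under 0.05 and the dotted line marks equal slopes. At 10 months 64 of 65 points lie above 0 and 2 are filled, and in the AAV arrays 62 lie above 0 and 31 are filled.

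In the AAV arrays, markers of other cell classes also had slopes on the score. All 16 oligodendrocyte genes had slopes above 0, with a median of 0.44, and 4 passed upward (Gjb1, Trf, Aspa and Cldn11), beside 50.8% and 1.06% of all genes. All 9 microglial genes had slopes above 0 and C1qa passed (0.73). Of 25 hypothalamic peptides 22 had slopes below 0 and 7 passed downward, among them Oxt (-1.57), Avp (-1.51), Trh (-1.14) and Vip (-1.10), and all 9 genes of GABA neurons lay below 0, 5 of which passed, beside 0.998% of all genes that passed downward. These calls rest on 18Q replicate 3: without it 0 genes of these 4 lists passed in either direction (0.0702% of all genes upward and 0.015% downward), with 16 of 16 oligodendrocyte and 9 of 9 microglial genes still above 0 and 22 of 25 peptides and 9 of 9 genes of GABA neurons still below. Without it the slope of Oxt was -1.40 (adjusted p of 0.177) and that of C1qa 0.82 (adjusted p of 0.268). Mean levels of the oligodendrocyte list spanned 10.12 to 10.81 among 18Q arrays, 10.10 to 10.57 among 79Q arrays and 10.24 to 10.36 among uninjected controls. Those of the microglial list spanned 9.04 to 9.66, 9.00 to 9.75 and 8.42 to 8.48, and those of the peptides 9.07 to 9.79, 9.16 to 9.51 and 9.61 to 9.74. The part of these cell classes in the slopes of the 65 genes was not tested. At 10 months none of these lists held a gene that passed in either direction. There 13 of 16 oligodendrocyte and 9 of 9 microglial genes had slopes above 0, beside 61.7% of all genes. So did 15 of 25 peptides (median 0.04) and 7 of 9 genes of GABA neurons (median 0.02), and the lean of these 2 lists below 0 in the AAV arrays was not seen at 10 months.

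The remaining question was whether the thalamic share differed between BACHD and WT at 2 months and how the genotype contrast looked with it in the fit. The score without centring was -0.28 ± 1.27 in BACHD and 0.28 ± 1.11 in WT (SD, n = 6 and 6). The difference of -0.56 was smaller than the spread within either genotype (exact two-sided permutation test over 924 splits, p = 0.383, with 0.00216 the smallest p possible). By limma, 0 of 34760 probe sets differed between BACHD and WT after adjustment (0%), both with genotype alone and with the score as a term (smallest adjusted p of 0.841 and 0.999). At an unadjusted p under 0.05, 1422 probe sets (4.09%) differed with genotype alone, 303 higher and 1119 lower in BACHD, and 1104 (3.18%) with the score, 280 higher and 824 lower. At this threshold 5% of all probe sets is 1738. The count with the score was 2361 without WT replicate 4.

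All 65 genes that rose with the score were lower in BACHD than in WT with genotype alone, beside 64.5% of all genes, with a median difference of -0.19. With the score as a term 27 of the 65 were lower, beside 60.4% of all genes, and the median difference was 0.01. These genes were chosen for their slope on the score, and the uncentred score was lower in BACHD. Nothing is therefore read from either count or from the move between them. Slc17a7 went from -0.46 (SE 0.57) to 0.04 (SE 0.20), and Ptpn3 from -0.68 (SE 0.54) to -0.19 (SE 0.07, adjusted p of 0.999). Ptpn3 was the only gene of the 65 at an unadjusted p under 0.05 with the score, and none was with genotype alone. Tacr3, the receptor of neurokinin B, was 8.31, 8.44 and 8.54 (lowest, median, highest) in BACHD and 8.51, 8.88 and 9.03 in WT, and its difference was -0.40 (SE 0.08) alone and -0.38 (SE 0.09) with the score. Acot5, an acyl-CoA thioesterase, was 5.65, 5.88 and 6.12 in BACHD and 5.24, 5.62 and 5.76 in WT, with differences of 0.33 (SE 0.10) and 0.28 (SE 0.10). Neither passed after adjustment (adjusted p of 0.939 alone and 0.999 with the score for both).

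With the score in the fit, the smallest unadjusted p values of genes higher in BACHD belonged to Napepld, which makes N-acylethanolamines (0.29, SE 0.08), Rmdn3, a mitochondrial tethering protein (0.22, SE 0.06), and Klk1b24, a kallikrein (0.30, SE 0.09). Those of genes lower in BACHD belonged to n-R5s136, a 5S ribosomal RNA gene (-0.52, SE 0.11), Lamtor4, a subunit of the lysosomal Ragulator complex (-0.25, SE 0.05), and Serpinb6b, a serine protease inhibitor (-0.34, SE 0.07). All had an adjusted p of 0.999. Napepld was the one whose difference moved most, from 0.18 (SE 0.14) with genotype alone. The slope on the score was also compared between genotypes. No probe set passed after adjustment (0%, smallest adjusted p of 0.803, with 2024 at an unadjusted p under 0.05). The 65 genes were chosen for a like sign in both genotypes and are not read in this comparison.

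**Figure D5:**
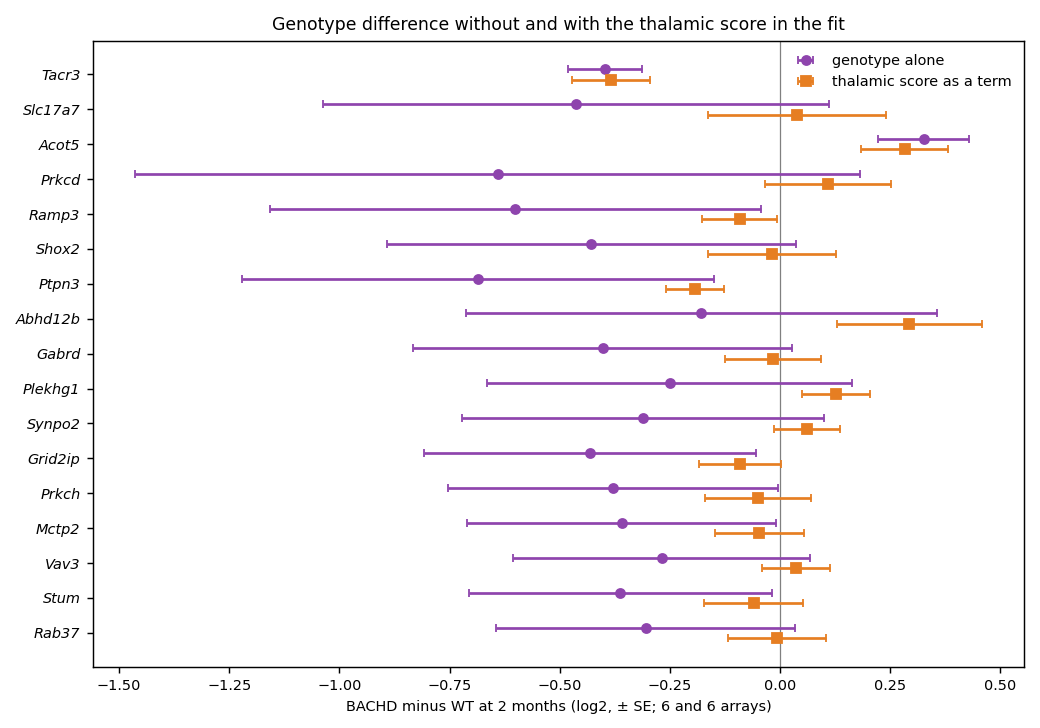
BACHD minus WT difference at 2 months (log2, ± SE, 6 and 6 arrays) of the 3 markers, the 12 leading genes, Tacr3 and Acot5, with genotype alone (purple circles) and with the thalamic score as a term (orange squares). The difference of Slc17a7 lies at -0.46 and 0.04 in these fits, that of Tacr3 at -0.40 and -0.38, and the SE of the thalamic genes is smaller with the score.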

How the data were processed

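Affymetrix Mouse Gene ST 1.0 arrays measured hypothalamic RNA of 38 mice, 1 array each. The authors read the raw data with ReadAffy, applied Robust Multi-Array Averaging (RMA) and deposited log2 values for 34760 probe sets. RMA corrects background, equalizes distributions by quantiles and sums up probes by median polish, so that each value depends on the arrays processed with it. The submitters' processing notes name R 4.1.1, affy 1.70.0 and limma 3.48.3. Arrays at 2 months, at 10 months and of the AAV experiment were taken as normalized apart, so that tests stayed within a set. The interquartile range of an array's values was 3.079 to 3.228 in the AAV arrays and 3.235 to 3.497 at 2 months. At 10 months it was 3.388 to 3.454, inside the range of the 2-month arrays, so the spread does not set these 2 sets apart. All 38 columns were matched to samples by title, and 0 columns of other samples were present. Slide and scan order were not used here.

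The platform annotation gave 21640 probe sets with a single symbol, 1321 with several and 11799 with none here. Symbols were checked against RefSeq by Entrez identifier (21553 matched, 0 changed). The brightest probe set over the fitted arrays stood for a gene (19937 symbols). Models were fitted in R 4.3.3 with limma 3.58.1 (lmFit and eBayes) on all 34760 probe sets, with a term for each group and the score as covariate, with Benjamini-Hochberg adjustment across the whole table. All tests were two-sided. SE is limma's moderated standard error. The variance percentage is the part of a probe set's within-group sum of squares on the score. The number of mice limits the precision: the median SE of a slope was 0.04 at 2 months. The steps were tested on simulated data with known slopes.

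The members, gene lists and tests were chosen with earlier results of these data known. Named genes were the 3 markers, the 12 genes with the largest slopes in each direction that met the rule, for each list 2 to 4 members with the largest slopes and any member against the rest, the 2 genes on each side of the threshold, Tacr3, Slc17a7 and Acot5, and, from the genotype contrast with the score, 3 genes per direction by smallest p. Others are named as members of a list or of a small count. No gene fell within the rule. Genes with the most negative slopes, which did not meet it, entered the check of outlying values. Alternatives were other scores, array centring, a filter on dim probe sets, gene means, left-out arrays, a replicate block, other thresholds and single groups.

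Same-numbered arrays of different groups were checked for shared deviations: correlations lay between -0.311 and 0.28 at 2 months, -0.16 and 0.0924 at 10 months and -0.246 and 0.0969 in the AAV arrays, so the numbers were not taken as pairs.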

Additional observations from a re-analysis of the deposited data

Results flagged for a closer look

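Over 76 groups of values of the named genes and the score, 6 had a sample far from the others of its group, beside about 1 in 20 that chance gives. Cga was 11.99 on WT 2 months replicate 5, with the other WT arrays between 8.11 and 9.42. Slc6a3 was 10.60 on BACHD 2 months replicate 7, with the others between 7.81 and 8.70. Crabp1 was 9.99 on WT 2 months replicate 3, with the others between 10.55 and 10.78. Avp was 9.83 on WT 2 months replicate 2, with the others between 10.84 and 11.38. Hdc, the histamine-synthesizing enzyme, was 8.30 on WT 2 months replicate 3, with the others between 9.14 and 9.60. Pomc was 6.74 on BACHD 2 months replicate 2, with the others between 7.72 and 7.98. All 6 genes entered this check because they were among those with the most negative slopes on the thalamic score. Their slopes below 0, and the scores of the arrays below, are bound up with that choice, and nothing is read from them. The low values stood on arrays with scores of 1.05 (WT replicate 3), 0.53 (WT replicate 2) and 1.64 (BACHD replicate 2), and the high values on arrays with -1.38 (WT replicate 5) and -1.08 (BACHD replicate 7).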

How the results depend on the processing

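Of 65 genes rising at 2 months, leaving out each array gave 58 to 72, with at least 56 of the 65 among them. A score without Prkcd gave 102 (63 of the 65 among them), a score from the other thalamic markers, which spans a smaller range, 221, and a variance share of at least 90% 39. In the 7 arrays with a score above 0, an alternative chosen after seeing the data, 64 genes rose but only 28 were among the 65. The 0 falling genes became 1 with the other thalamic markers as the score, 3 at a variance share of at least 60%, 15 in the BACHD arrays alone, 43 in the 7 arrays with a score above 0 and 7 without the 3 lowest arrays (also chosen after seeing the data), and 0 to 1 on leaving out each array. At 10 months, the 2 that passed upward became 4 with a score without Shox2, 5 with probe sets at or above the median level, 5 with gene means, 0 without the 2 arrays farthest from the median score and 45 unadjusted, and 0 to 2 on leaving out each array. In the AAV arrays, the 31 became 2 without the 2 farthest arrays (18Q replicate 3 and 79Q replicate 6), 0 in uninjected controls alone and 49 unadjusted, and 9 to 33 on leaving out each array. No rising gene passed downward in any of these.

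With genotype, 7 probe sets passed when the score was centred within genotype, 6 of Ptpn3 and 1 of Ramp3, all lower in BACHD. A centred score leaves the genotype difference in thalamic share in the contrast, and with the uncentred score each had an adjusted p of 0.999. Probe sets at or above the median level gave 623 at an unadjusted p under 0.05 in place of 1104, and leaving out each array 870 to 2361 (2361 without WT 2 months replicate 4), with 0 after adjustment. The score difference ran from -0.885 to -0.274 on leaving out each array (exact permutation p from 0.21 to 0.667 over all alternatives).

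The replicate numbers were not taken as pairs, and whether they mark a shared batch was not tested. With a replicate block, 95 genes rose (50 of the 65 among them) and 24 fell, 0 of the 65 passed at 10 months and 4 in the AAV arrays, and the genotype contrast gave 1101 unadjusted and 0 adjusted. The score difference in this pairing was -0.556 (exact sign permutation, p = 0.219). Over all alternatives the score difference stayed below 0. The slopes of the 12 leading genes at 2 months stayed above 0 wherever they were measured. Counts of genes have no sign that could reverse, and the counts of rising and falling genes moved as given above. Slopes had a median SE of 0.04 at 2 months, 0.06 at 10 months and 0.08 in the AAV arrays, where the score spanned the least.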

Other observations

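Of 15 hypothalamic transcription factors, 14 had slopes below 0 on the thalamic score in the AAV arrays and 6 passed limma downward, among them Otp (-0.52), Six6 (-0.67), Tbx3 (-0.53) and Fezf1 (-1.13), beside 0.998% of all genes. Foxb1, a transcription factor of the mammillary region, had a slope of 0.63 (adjusted p of 0.0365). Without 18Q replicate 3, a setting chosen after seeing the data, 13 of the 15 were below 0 and 0 passed in either direction, with Otp at -0.45 (adjusted p of 0.0619). At 10 months 7 of the 15 had slopes above 0, beside 61.7% of all genes, and 0 passed.

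Pvalb, a calcium-binding protein of reticular thalamic and other inhibitory neurons, had a slope of 1.23 in the AAV arrays (adjusted p of 0.00525), and Grm2, a metabotropic glutamate receptor, of 0.79 (adjusted p of 0.00767). Without 18Q replicate 3 these were 0.97 (adjusted p of 0.178) and 0.71 (adjusted p of 0.19). All 5 monoamine genes had slopes above 0 in the AAV arrays, and 2 of the 5 without 18Q replicate 3, and none passed in either case.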
